A study of Mus musculus with 6 samples.

Results

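The miRNAs described here are 10 members of the miR-17-92 and miR-106b-25 clusters and of the related miR-106a-363 cluster, out of 611 mouse miRNAs on the array. They were chosen by name on the array, with the star (passenger) strands left out: mmu-miR-17, mmu-miR-18a, mmu-miR-19a, mmu-miR-19b, mmu-miR-20a, mmu-miR-20b, mmu-miR-92a, mmu-miR-25, mmu-miR-93 and mmu-miR-106b (written without the species prefix mmu from here on). Total RNA came from EB3, an embryonic stem (ES) cell line of strain background 129/Ola, and each of 6 samples was hybridised to 1 single-colour Agilent array on 1 slide. The 3 samples titled Activin (-) have the source name EB3_control, and the 3 titled Activin (+) the source name EB3_differentiated with Activin. The growth text is the same for all 6 samples and describes Activin, a ligand of the TGF-beta family, at 10 ng/ml through 3 days of embryoid bodies and 15 days on gelatin, with harvest on day 18. What the Activin (-) cells went through is therefore not settled by the labels. Nor do they say whether the 3 samples of a group were separate cultures. The p-values therefore cover only sample-to-sample spread, pooled over the tested miRNAs, and part of it may be technical. In bulk RNA, fewer cells of a type and less RNA per cell cannot be told apart.

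The miR-17-92 cluster is a single primary transcript that is cut into several miRNAs. It is known for its induction by Myc factors, for its promotion of proliferation and survival, and for high expression in ES cells and other dividing cells. The miR-106b-25 cluster lies in an intron of Mcm7, a gene of the replication helicase, and miR-106a-363 is a paralog on the X chromosome. A miRNA recognises its targets mainly through its seed, bases 2 to 8 from the 5′ end, so members of different clusters with the same seed can act on overlapping sets of transcripts.

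The mature sequences are shown because the members fall into 4 seed groups that cross the clusters. They are RefSeq sequences of build GRCm38.p6, matched by name for all 10 members, written 5′ to 3′ with the seed in capitals. Of these, the seed AAAGUGC is shared by 5 members, known repressors of cell cycle inhibitors such as Cdkn1a.
miR-17: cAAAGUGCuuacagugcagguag
miR-20a: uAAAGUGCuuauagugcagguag
miR-20b: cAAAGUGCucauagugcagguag
miR-93: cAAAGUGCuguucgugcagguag
miR-106b: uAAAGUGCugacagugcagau
miR-18a: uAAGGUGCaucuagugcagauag
miR-19a: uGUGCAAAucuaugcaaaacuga
miR-19b: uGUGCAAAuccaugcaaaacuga
miR-92a: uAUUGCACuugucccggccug
miR-25: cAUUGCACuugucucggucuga

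Several members are nearly identical. Counting positions from the 5′ end, miR-17 and miR-20a differ by C1U and C12U, miR-20a and miR-20b by U1C and U10C, and miR-19a and miR-19b by U11C alone. Over the 21 bases that miR-92a and miR-25 have in common from the 5′ end they differ by U1C, C14U and C18U. How far the array's probes tell such neighbours apart was not tested. miR-17, miR-18a, miR-19a, miR-20a, miR-19b and miR-92a lie within 813 bases of the plus strand at chr14:115043684-115044496 (GRCm38.p6). miR-106b, miR-93 and miR-25 lie within 476 bases of the minus strand at chr5:138165332-138165807. miR-20b lies on the minus strand of the X chromosome at chrX:52742159-52742181. miR-19b and miR-92a each have a second gene there with the same mature sequence, so their signal sums 2 loci.

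The array reports background-subtracted intensity, and levels are compared only within a miRNA, because probes bind with different strength. Detection of a member on an array required at least 1 probe with over 0.5 of its spots well above background. Scaled signals are log2 of the intensity averaged over probes and divided by the array's 75th percentile of the probes detected on all 6 arrays, with a floor at -4.94. Control 1 and activin 2 were dim arrays, with 75th percentiles of 249 and 177 intensity units against 427 to 616 on the other 4. They detected 80 and 54 mouse miRNAs against 110 to 119 on the others. Of 14 miRNAs that mark mouse ES cells, 5 to 8 were detected per control array and 5 to 10 per activin array, and their summed signal was 2.65 to 4.00 in control and 2.57 to 2.94 with Activin on the scaled log2 scale. The markers miR-290-5p, miR-290-3p, miR-291a-5p and miR-292-5p were detected on none. The summed signal covers ES cell markers that went both ways in the limma fit described below. Among those tested, log2 fold changes, Activin (+) minus Activin (-), were 1.23 for miR-302c, -0.74 for miR-292-3p and -0.67 for miR-291a-3p. They were -0.43 for miR-293, -0.38 for miR-295 and -0.37 for miR-294. Of 6 mesenchymal or fibroblast miRNAs, 4 were detected on at least 1 array (miR-143 and miR-145 on none), and their summed signal was 0.83 to 1.32 in control and 1.43 to 1.54 with Activin on the scaled log2 scale. Epithelial markers were detected for 3 of 5 miRNAs, with a summed signal of -2.20 to -1.64 in control and -2.15 to -1.27 with Activin, and none of 4 haematopoietic miRNAs or the liver miRNA miR-122 was detected. The part of these other cell types in the members' signals was not tested.

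In both groups 8 of the 10 members were detected on at least 1 array, against 21.3% of all mouse miRNAs on the array. miR-19b, miR-20a, miR-20b, miR-92a and miR-106b were detected on all 6 arrays, which 8.67% of mouse miRNAs were. Each of the 4 brighter arrays detected the same number of members, 8. Control 1 detected 7 and activin 2 detected 5, so the group means differed by -0.67 members, and by 0 without these arrays. These counts depend on the detection rule. The scanner software's own call listed 7, 9 and 9 members in controls 1, 2 and 3 and 8, 7 and 8 in activin 1, 2 and 3. The group means again differed by -0.67, but the dim arrays were then equal and both brighter controls lay above both brighter activin arrays. By the majority of spots, miR-18a and miR-25 were missed on activin 2 alone, and miR-93 on both dim arrays. The software's call listed miR-18a and miR-25 as detected on activin 2, where the brighter probe of miR-18a had a share of 0.5. miR-17 and miR-19a were detected on none by the majority of spots.

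Activin (+) and Activin (-) samples did not differ past the threshold in any of the 7 members that could be tested. Of all 79 mouse miRNAs tested with limma, 1 passed at an adjusted p of 0.05 (1.27%), and 0 of the 7 members did. Without adjustment, 9 of the 79 (11.4%) and 0 of the 7 members had p below 0.05. The groups overlapped in all 7, while they did not overlap in 17.7% of the 79, higher with Activin in 11.4% and lower in 6.33%. The members' log2 fold changes, Activin (+) minus Activin (-), ran from -0.15 to 0.31 with a median of 0.019, beside a median of 0.17 over all 79. The members' median was -0.20 without control 1, where 8 members were tested, and 0.24 without control 3, beside 0.025 and 0.24 over all miRNAs then tested. Blocking on the slide column gave 0.18 for the members, beside 0.24 over all. Control 3 and activin 1 were alone in their columns, so that estimate rests on the pairs in columns 1 and 2 only. The median over all 79 was 0.0054 with each array's 75th percentile of all probes and -0.31 with normexp background. The members' median was -0.14 and -0.15 in these settings. A difference close to 0 therefore has no direction of its own here. The 3 members outside the test, miR-17, miR-19a and miR-93, were not detected on all 3 arrays of either group.

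**Figure D1:**
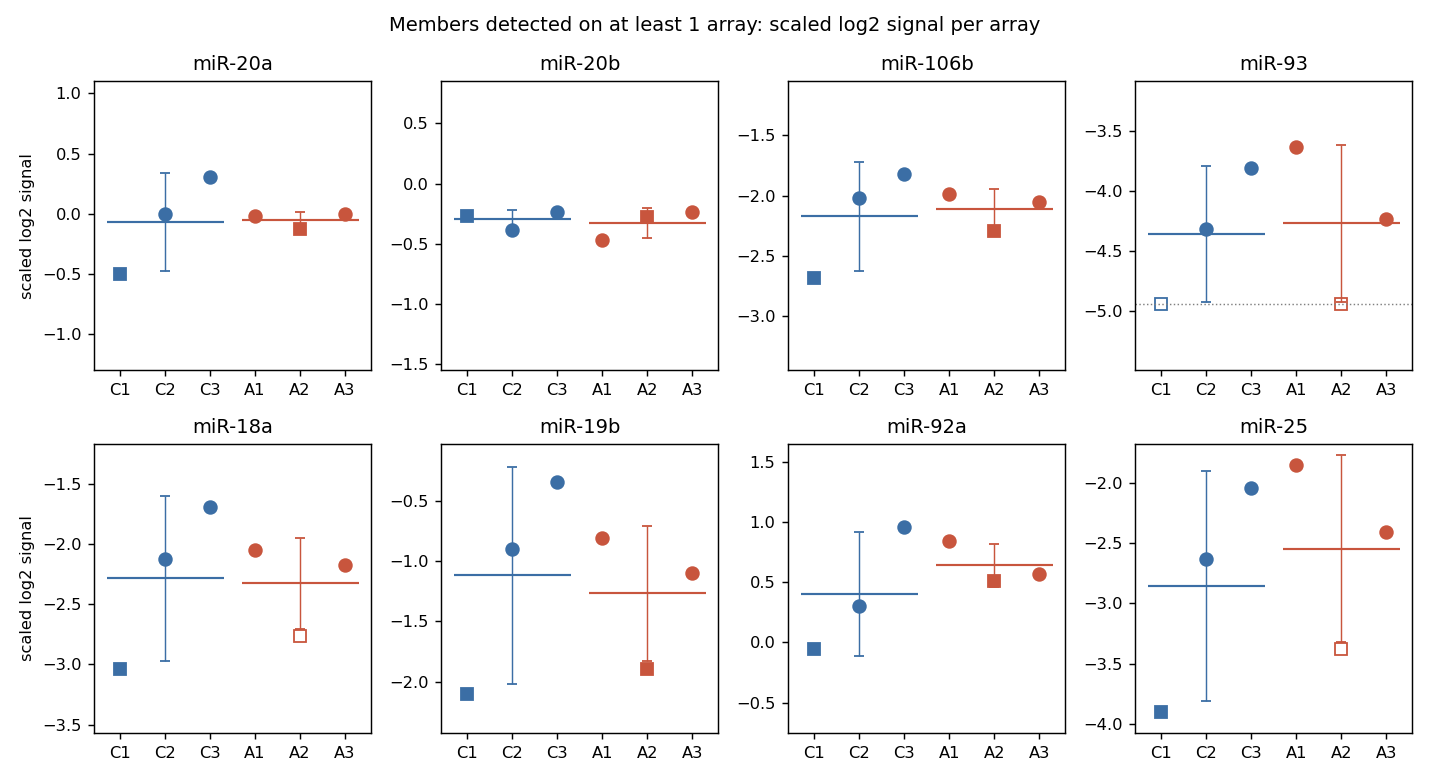
Scaled log2 signal (vertical axis) of the 8 members detected on at least 1 array, for control arrays C1 to C3 (blue) and Activin arrays A1 to A3 (red). Squares mark the 2 dim arrays, open symbols arrays where the member was not detected, horizontal lines group means, bars 1 SD, and the dotted line the floor. Every panel spans 2.4 log2 units. The groups overlap in all panels, and on this scaling, which its own probes help to set, miR-20b varies least.

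Among the tested miRNAs with the seed AAAGUGC, log2 fold changes ran from -0.028 to 0.062. miR-20a, of the miR-17-92 transcript, gave 176, 615 and 527 intensity units in controls 1, 2 and 3 and 562, 163 and 555 in activin 1, 2 and 3. Its scaled log2 signals were -0.50, -0.0019 and 0.30 in control and -0.019, -0.12 and 0.0012 with Activin. The 3 activin arrays lay inside the control range, and control 1 was lowest. The groups differed by 0.019 log2 units (SE 0.29, limma adjusted p = 0.961, 95% interval -0.56 to 0.60), with means of -0.065 ± 0.40 and -0.046 ± 0.065 (SD, n = 3 each).

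miR-20b, the X-linked copy with the same seed, gave 207, 471 and 363 units in control and 413, 146 and 472 with Activin. After scaling these became -0.27, -0.39 and -0.23 in control and -0.46, -0.28 and -0.23 with Activin. Its SD over the 6 arrays after scaling, 0.094, was the smallest of the 79 tested miRNAs, whose median was 0.35. Both of its probes are among the 59 that set the scale. The brighter one ran from -0.27 to -0.037 on the scaled log2 scale, near the percentile that each array is divided by. The small SD is therefore not read as a trait of miR-20b, and the part of the scaling in it was not tested. Both of its probes were detected on every array, and their own log2 differences were -0.0073 and -0.043. The fit gave a log2 fold change of -0.028 (limma adjusted p = 0.956, SE 0.29), with a 95% interval of -0.61 to 0.55.

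miR-106b, the first miRNA of the Mcm7 intron, was measured on the scaled log2 scale at -2.68, -2.02 and -1.82 in control and at -1.98, -2.29 and -2.05 with Activin. Control 1 was again lowest and control 3 highest, so the activin arrays fell between them. Its log2 fold change was 0.062 (SE 0.30, limma adjusted p = 0.941). Of its probes, the one detected on all 6 arrays differed by 0.14. With the 75th percentile of all probes the estimates were -0.14 for miR-20a and -0.098 for miR-106b, and both were also below 0 with no scaling and with median centring.

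miR-18a, the only member with the seed AAGGUGC, gave 30.2, 141 and 132 units in control and 138, 26.1 and 123 with Activin. Its scaled signals were -3.04, -2.12 and -1.70 in control and -2.05, -2.76 and -2.18 with Activin. The lowest value in each group was that of the dim array. Its log2 fold change was -0.042 (limma adjusted p = 0.956, SE 0.30), with a 95% interval of -0.63 to 0.55, and it was 0.25 without control 3, 0.040 without control 2 and 0.011 without activin 2.

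miR-19b, known as the main oncogenic component of the cluster, gave 57.9, 330 and 336 units in control and 326, 47.8 and 258 with Activin. Scaled, these were -2.10, -0.90 and -0.34 in control and -0.81, -1.89 and -1.10 with Activin. The spread inside control, 1.76 log2 units from lowest to highest, exceeded the difference between groups, which was -0.15 on the log2 scale (limma adjusted p = 0.813, SE 0.31, 95% interval -0.75 to 0.45). Without control 1 that change was -0.64, and without control 3 it was 0.24, so its direction rested on which control arrays were used.

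On the main scaling, the seed group of miR-92a and miR-25 held the members with the largest estimated differences from 0. Both were above 0 and neither was past the threshold. Against the median of the 79, miR-19b lay farthest off among the tested members, at -0.32, with miR-25 at 0.15. miR-92a, which is known to act on integrin and Bim transcripts, gave 239, 759 and 828 units in control and 1022, 253 and 822 with Activin. Its scaled signals were -0.058, 0.30 and 0.96 in control and 0.84, 0.51 and 0.57 with Activin, so all 3 activin arrays lay above 2 of the 3 control arrays and below control 3. Its log2 fold change was 0.24 (limma adjusted p = 0.671, SE 0.30), with a 95% interval of -0.34 to 0.83. It stayed above 0 under all 22 alternatives, from 0.013 without control 1 to 0.52 without control 3. Of these, the deposited series table, the floor at 2 times, the filter and detection settings and the replicate block left it at 0.24. They therefore say nothing on how stable its sign is. Taken against the median of the 79, its log2 fold change was 0.076. Against the median of the miRNAs tested in each setting it was -0.013 without control 1 (107 tested), -0.0080 without control 2 and 0 without activin 1.

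miR-25, the last miRNA of the Mcm7 intron, gave 16.7, 99.5 and 104 units in control and 158, 17.01 and 104 with Activin. The scaled signals were -3.90, -2.63 and -2.04 in control and -1.85, -3.38 and -2.41 with Activin. Both dim arrays were lowest in their group, and activin 1 was the highest array. Its log2 fold change, 0.31 (limma adjusted p = 0.619, SE 0.31, 95% interval -0.30 to 0.92), was smaller than the SDs of 0.95 in control and 0.78 with Activin. It turned to -0.21 without control 1, -0.037 without activin 1 and -0.19 with normexp background, and rose to 0.72 without control 3 and 0.56 without activin 2.

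**Figure D2:**
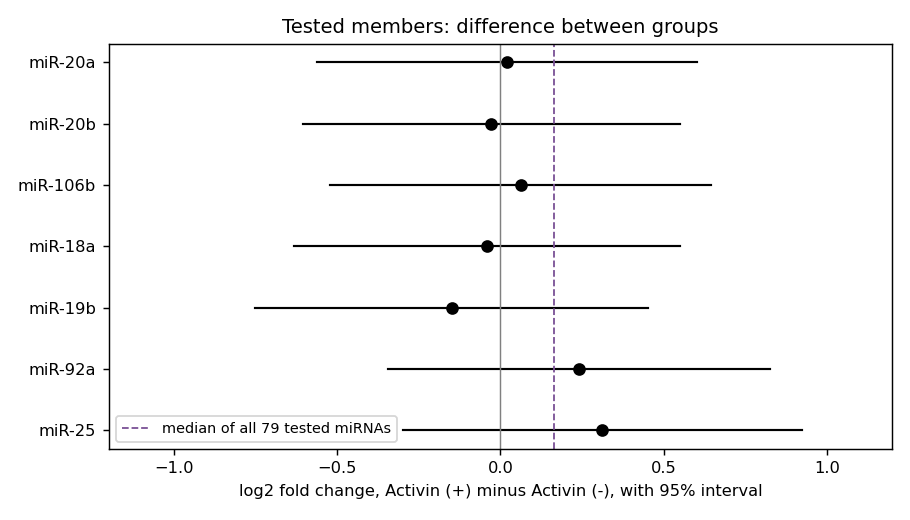
Log2 fold change of the 7 tested members (horizontal axis, Activin (+) minus Activin (-)) with the 95% interval of the limma fit, ordered by seed group. Every interval spans 0, and the dashed line marks the median of all 79 tested miRNAs at 0.17.

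The limma 95% intervals of all 7 tested members lay within a 2-fold change in either direction, as did those of 56 of the 79 tested miRNAs. These intervals, and the p-values of the same fit, rest on a variance pooled over all 79 (SEs of 0.29 to 0.31), hardly on a member's own spread, and on 1 scaling. For members with a wide spread, such as miR-25 and miR-19b, the intervals therefore do not exclude a 2-fold change. For miR-20b the SE of 0.29 exceeded its own SDs, 0.079 in control and 0.12 with Activin. Intervals from each member's own variance were not computed. The members' own SDs over the 6 arrays ran from 0.094 for miR-20b to 0.79 for miR-25. By cluster, the 4 tested miRNAs of miR-17-92 had a median log2 fold change of -0.011 and ran from -0.15 to 0.24. The 2 tested miRNAs of miR-106b-25 stood at 0.062 and 0.31. Set against the median of the 79, miR-92a and miR-25 lay higher and the other 5 lower, while with normexp background 6 lay higher and miR-18a was the median itself. Without control 1, 0 of the 7 lay higher than the median of the 107 miRNAs then tested.

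miR-17, which gives its cluster the name, gave intensities below 0 on every array with both of its probes. The intensities of the first probe ran from -9.66 to -5.01 units and those of the second from -10.7 to -2.46. No spot outside the outlier flags was well above background, and the software's own call did not list it as detected on any array. miR-17 has only a bound in both groups, so no fold is given. The sequences of its probes were not available, so probes that fail to bind cannot be told apart from absent miR-17.

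The hairpin of miR-17 is shown with both mature arms in capitals, miR-17 first and its star strand miR-17* (now miR-17-3p) second. Only the star strand was detected by its probes. The levels of the arms are not compared, because probes bind with different strength.
Mir17 hairpin: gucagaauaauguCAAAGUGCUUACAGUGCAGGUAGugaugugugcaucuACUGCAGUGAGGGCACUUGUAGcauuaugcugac
miR-17* was detected on the 4 brighter arrays, at 21.2 and 23.5 intensity units in controls 2 and 3 and 29.6 and 27.2 in activin 1 and 3. On the dim arrays it gave 3.36 units in control 1 and 13.3 in activin 2, below detection. On the scaled log2 scale the brighter arrays stood at -4.86 and -4.19 in control and -4.27 and -4.35 with Activin, so the groups overlapped. Of 8 star strands of members on the array, miR-17* alone was detected on any array, and none was tested.

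miR-19a, a neighbour of miR-19b on the same transcript, was not well above background by the majority of spots on any array. Its intensities were 0.476, 16.99 and 15.3 units in control and 9.40, -5.04 and 5.27 with Activin. The authors' deposited software call listed it as detected on controls 2 and 3 and on no activin array. Before scaling, controls 2 and 3 were the highest arrays. No fold is given, since both groups were below detection by the majority of spots.

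miR-93, between miR-106b and miR-25 in the Mcm7 intron, was detected on the 4 brighter arrays through 1 of its 2 probes. That probe gave 11.97, 63.8 and 59.6 units in control and 85.4, 9.32 and 59.8 with Activin. Averaged over both probes and scaled, the brighter arrays stood at -4.32 and -3.81 in controls 2 and 3 and at -3.64 and -4.23 in activin 1 and 3, so the groups overlapped. On the 4 brighter arrays, where 115 miRNAs entered the test, its log2 fold change was 0.16 (SE 0.16, limma adjusted p = 0.605). It was -0.20 without control 1 alone and 0.40 without activin 2 alone.

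**Figure D3:**
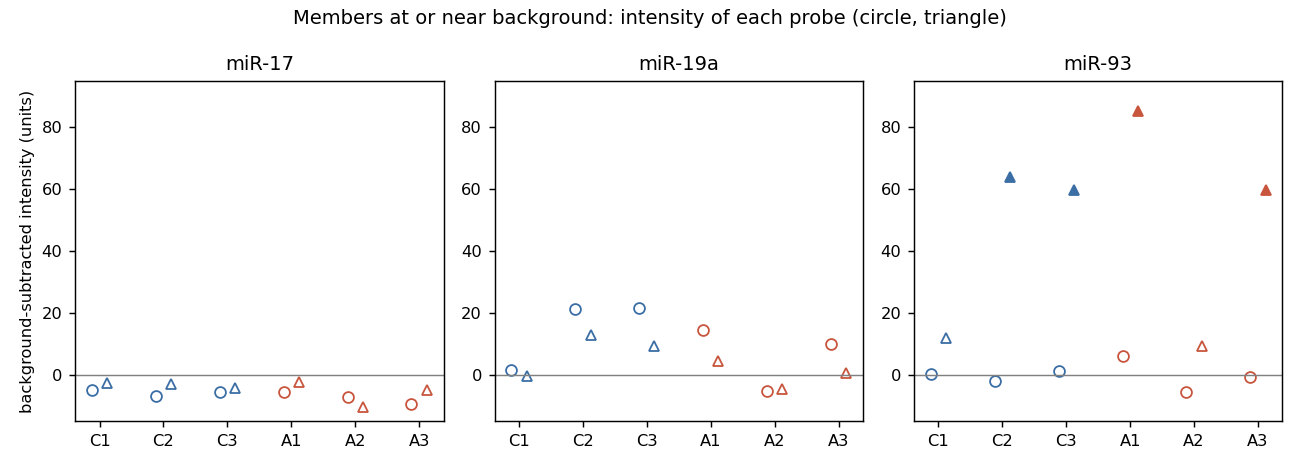
Background-subtracted intensity (vertical axis) of both probes of miR-17, miR-19a and miR-93 (circle and triangle) on each array, control in blue and Activin in red. Filled symbols mark probes with over 0.5 of their spots well above background, which occurs for 1 miR-93 probe on 4 arrays, while miR-17 lies below 0 throughout.

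After scaling, the members still differed between the 2 dim arrays and the other 4, a split that crosses the groups because control 1 and activin 2 are 1 of each. In 5 of the 7 tested members both dim arrays lay below all 4 others, which 16.5% of the 79 tested miRNAs showed. Both dim arrays lay above the 4 others in 0 of the 7, against 6.33% of the 79. This split and its rule were chosen after the values were seen, and 6 of the 59 probes that set the scale belong to members, both miR-20b probes among them. Averaged over the arrays, the difference of dim minus brighter arrays was -1.41 for miR-25, -1.21 for miR-19b, -0.89 for miR-18a, -0.52 for miR-106b, -0.44 for miR-92a and -0.38 for miR-20a. For miR-20b the difference was 0.056, and over all 79 the median was -0.18. The count was 5 of 7 with quantile scaling (17.7% of all), 4 of 7 with median centring (8 of 79) and 2 of 7 with normexp background (2.53%). With no scaling or with the 75th percentile of all probes it was 7 of 7, where 97.5% and 89.9% of all tested miRNAs did the same. The part of array brightness in the members' differences between groups was not tested, and without both dim arrays the median log2 fold change of the 8 members then tested was -0.042, beside 0.098 over all 115.

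**Figure D4:**
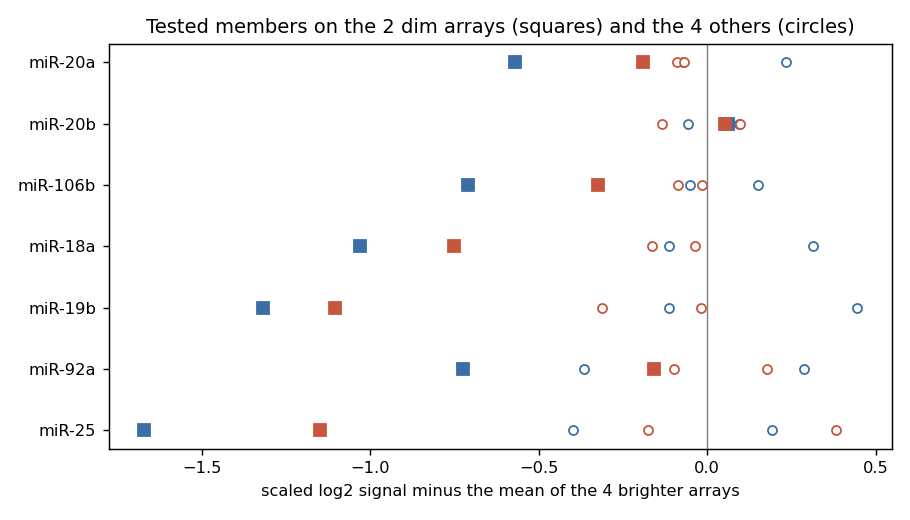
Scaled log2 signal of the 7 tested members minus the mean of the 4 brighter arrays (horizontal axis), control in blue and Activin in red. Squares are the dim arrays control 1 and activin 2, which lie left of all circles for 5 members but not for miR-20b or miR-92a.

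Columns of the slide gave pairs of like brightness, the same pairs on which the estimate with the slide column block rests. In column 1 activin 2 minus control 1 had a median of 0.38 over the 7 tested members, beside 0.50 over all 79. In column 2 activin 3 minus control 2 had a median of 0.0031, beside 0.025 over all. miR-92a stood at 0.57 and 0.27 in these columns and miR-25 at 0.52 and 0.22, while miR-19b stood at 0.21 and -0.20. Controls in these pairs sat in row 1 and activin arrays in row 2, so row and group cannot be told apart there.

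Other miRNAs with a seed of a member are shown because the AUUGCAC seed reaches beyond the 3 clusters, to the miR-302 and miR-367 cluster of ES cells among others.
miR-18b: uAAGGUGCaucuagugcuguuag
miR-363-3p: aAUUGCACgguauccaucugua
miR-367: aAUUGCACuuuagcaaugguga
miR-32: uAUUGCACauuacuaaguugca
miR-92b: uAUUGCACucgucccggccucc
Of these 5, miR-363-3p and miR-367 were detected, each on the 4 brighter arrays, and none met the filter for testing. On those arrays miR-363-3p, of the X-linked cluster, stood at -4.63 and -4.00 in controls 2 and 3 and at -3.90 and -4.23 in activin 1 and 3 on the scaled log2 scale. miR-367 stood at -2.75 and -2.07 in these controls and at -2.37 and -2.30 in these activin arrays. For both miRNAs the groups overlapped. miR-18b, miR-32 and miR-92b were not detected on any array, so of the 6 miRNAs on the array with the seed AUUGCAC, 4 were. miR-106a was not found by name on the array, so it was not analysed.

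The tested miRNAs outside the set whose signal moved most like the mean of the 7 members over the 6 arrays were miR-103, miR-24 and miR-130a. Their root mean square differences from that mean, each centred on its own mean, were 0.10, 0.15 and 0.15 log2 units, against a median of 0.37 over the other tested miRNAs. The centred mean of the members was -0.62, 0.062 and 0.47 in control and 0.27, -0.29 and 0.11 with Activin. miR-103 took -0.70, 0.017 and 0.40 in control and 0.49, -0.29 and 0.084 with Activin. In both, the dim array was the lowest of its group, and all 4 share the same 6 arrays and their scaling.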

How the data were processed

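Each array took Cy3-labelled material from 100 ng of RNA, per the labels' protocols. In the deposited scanner files, spot intensity is linear and background-subtracted, and arrays are not scaled to each other. The scanner software was Agilent's Feature Extraction; its version is 10.7.3.1 in the file headers and 10.1.1 in the submitters' processing notes, and these were not reconciled. The series' own value table repeats these deposited intensity values, linear and uncentred. Flags for spots well above background are other values that the authors' deposited files carry.

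Spots without outlier flags were averaged per probe (10 spots each) and probes per miRNA. The floor was the median over arrays of percentile 1 of detected miRNAs. Mouse miRNAs detected on all 3 arrays of a group were tested with limma 3.58.1 in R 4.3.3 (two-sided, Benjamini-Hochberg over all tested), checked on simulated data. Only 6 arrays limit the precision. Files carried no mean signal, so normexp used the median signal with an offset of 50. Array scaling, background, probe summary, floor, filter, blocks and left-out arrays were varied. All 10 members, the detected related miRNAs, and the 3 miRNAs nearest to the members' mean are named. The members and lists were chosen with earlier results of these data known. No 2 arrays shared a spot value.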

Additional observations from a re-analysis of the deposited data

How the results depend on the processing

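Over 22 alternatives no member passed the threshold (limma adjusted p of at least 0.223), and 30 of 152 member estimates changed sign. The 152 include the deposited series table, the floor at 2 times, the filter and detection settings and the replicate block. These left the estimates of the 7 tested members at their main values, so no sign changed there. The 1 call over all tested miRNAs, miR-302c, which is no member, became 0 calls with scaling to the all-probe percentile 75, no scaling, quantile scaling, median centring, normexp, software totals, mean of log2, brightest probe, floor at 2 times, no filter, detection on all arrays, the software's detection call and without both dim arrays. Leaving out 1 array gave 0 to 1 calls, with a count of 1 without control 3 and 0 without each other array. Whether the replicate numbers pair the samples is not settled. Deviations of same-numbered arrays correlated at -0.64, -0.095 and 0.34, and those of the dim arrays control 1 and activin 2 at 0.55. Such deviations also hold array brightness, so they cannot decide on pairing. With the replicate block the count was 1 and the members' median 0.019. miR-20a turned to -0.14 with the all-probe percentile, -0.056 with no scaling, -0.12 with median centring, -0.068 with software totals and -0.13 without both dim arrays. miR-106b turned to -0.098 (all-probe percentile), -0.013 (no scaling), -0.064 (quantile), -0.076 (median centring), -0.29 (normexp), -0.050 (mean of log2) and -0.073 (without both dim arrays), and miR-25 to -0.19 with normexp. With slide column as a block, which leaves only the pairs in columns 1 and 2 to set the estimate, miR-18a was 0.11, miR-19b 0.0060 and miR-20b 0.073. Without 1 array at a time, miR-18a ran from -0.42 to 0.25, miR-19b from -0.64 to 0.24, miR-20a from -0.20 to 0.20, miR-20b from -0.22 to 0.042, miR-25 from -0.21 to 0.72 and miR-106b from -0.19 to 0.24. The cause of these changes was not tested. The deposited series table gave the reported values. miR-17 and miR-19a had no probe with over 0.5 of its spots well above background on any array, and miR-93 had none on the dim arrays.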
